A study of Mus musculus with 56 samples.

Results

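A set of 2838 HDAC1-bound regions lost their HDAC1 peak in mouse bone marrow-derived macrophages (BMDMs) after 1 hr of IL-4. They were chosen by merging the peaks of the 4 HDAC1 ChIP-seq lists wherever peaks overlapped by 1 bp or more and by keeping the merged regions with a peak in both untreated lists and in neither IL-4 list. They were 7.24% of the 39203 merged regions and 13.4% of the 21113 regions with a peak in both untreated lists. For comparison, 13447 regions had a peak in all 4 lists and are called kept, and 798 regions, 2.04% of all, had a peak in both IL-4 lists and in neither untreated list and are called gained. Presence or absence of an HDAC1 peak chose these regions, so their HDAC1 values are given as a description and were not tested.

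The cells came from wild-type mice of 8-12 weeks and were grown for 6 days in L929 supernatant, a source of M-CSF. The control group (ctrl) received no IL-4, and the other group (1hIL4) received 20 ng/ml IL-4 for 1 hr. HDAC1, HDAC2, HDAC3, p300, PU.1, the histone mark H3K27Ac, and RNA polymerase II phosphorylated at serine 5 or serine 2 of its tail (RNAPII-pS5 and RNAPII-pS2) were each measured in 2 ctrl and 2 1hIL4 samples. The study describes its replicates as independent biological ones, and the labels do not say whether they came from separate mice or cultures. The p-values below measure the spread between these samples.

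HDAC1 is a histone deacetylase. It removes acetyl groups from histone tails as the catalytic subunit of corepressor complexes such as NuRD, Sin3, and CoREST, usually side by side with its paralog HDAC2, while HDAC3 works in the separate NCoR-SMRT complex. HDAC1 is nevertheless found mostly at active promoters and enhancers, where the acetyltransferase p300 adds the marks that deacetylases remove, among them H3K27Ac. In macrophages many of these enhancers are opened by PU.1, the lineage-determining ETS factor, with partners such as AP-1, C/EBP, and RUNX factors. IL-4 acts through its receptor on JAK kinases and STAT6, which binds palindromic TTC and GAA letters spaced by 4 bases or, as other STAT factors do, by 3 bases.

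The HDAC1 lists were shorter after IL-4. They held 30511 and 26836 peaks in the ctrl samples and 23270 and 22340 peaks in the 1hIL4 samples, and the number of reads behind them is unknown. When each list was limited to its 22340 highest-scoring peaks, 1418 regions were lost, and 1325 of these were among the 2838. The p300 list of ctrl replicate 1 also stood apart, with 44787 peaks against 66710 to 69360 in the other 3 samples. The peak names inside all 4 RNAPII-pS2 lists give the other treatment than the sample labels do, so no direction is read from RNAPII-pS2. The labels and the study's ChIP-seq methods text give HDAC3 the antibody catalogue number of H3K27Ac, while its reagent list gives a separate HDAC3 antibody. As a check of the cell type, RNAPII-pS5 peaks lay within 1 kb of the start site of 5 to 7 of 8 macrophage marker genes per sample, of 0 to 1 of 5 T cell genes, of 0 to 1 of 5 neutrophil and granulocyte precursor genes, and of 0 of 4 B cell and 0 of 4 epithelial and fibroblast genes.

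The sequences of 5 lost regions are shown because they hold the kinds of letters that the comparisons below turn on. Each is the 200 bases around the middle of the higher-scoring ctrl HDAC1 peak, from the + strand of the mouse genome build GRCm38 (mm10), with motif letters of either strand in capitals. Socs1 encodes an inhibitor of JAK kinases, and the region near it holds 3 AP-1 matches (TGANTCA), a motif found more often in lost than in kept regions. The region near Ier5, an immediate early gene, holds 1 match each to AP-1, to PU.1 and other ETS factors (GAGGAAGT, here as its reverse complement ACTTCCTC), and to STAT with 3 spaced bases (TTCNNNGAA). The region near Osm, the gene of the cytokine oncostatin M, is one of the few with STAT6 letters (TTC and GAA with 4 bases between them), and also has a RUNX match (TGTGGTT). The region nearest the predicted gene Gm13546 had the highest ctrl HDAC1 score of all lost regions by the geometric mean of both samples, and holds 1 NFY match (CCAAT, here as ATTGG) and 1 RUNX match (here as AACCACA). The region in intron 2 of Runx1, the gene of a hematopoietic transcription factor, has an SP and KLF match (GGGCGG) and a C/EBP match (TTGCNNCAA).
Socs1 (chr16:10754645-10754844): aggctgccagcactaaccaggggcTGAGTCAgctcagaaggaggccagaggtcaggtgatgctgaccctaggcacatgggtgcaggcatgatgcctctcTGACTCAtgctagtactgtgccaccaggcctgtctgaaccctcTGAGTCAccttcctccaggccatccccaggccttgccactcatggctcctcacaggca
Ier5 (chr1:155050341-155050540): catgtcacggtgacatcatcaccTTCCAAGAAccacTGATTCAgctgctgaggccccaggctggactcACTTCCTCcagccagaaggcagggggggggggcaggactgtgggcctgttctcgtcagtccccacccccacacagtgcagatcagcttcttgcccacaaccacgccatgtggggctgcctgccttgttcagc
Osm (chr11:4232651-4232850): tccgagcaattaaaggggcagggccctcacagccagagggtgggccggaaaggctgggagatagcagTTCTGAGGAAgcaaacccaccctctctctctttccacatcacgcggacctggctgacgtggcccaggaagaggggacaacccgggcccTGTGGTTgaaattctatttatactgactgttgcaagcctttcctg
Gm13546 (chr2:58183733-58183932): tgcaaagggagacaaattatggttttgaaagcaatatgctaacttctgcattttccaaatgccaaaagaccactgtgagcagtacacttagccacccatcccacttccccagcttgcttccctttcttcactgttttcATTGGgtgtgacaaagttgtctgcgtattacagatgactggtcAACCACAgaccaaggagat
Runx1 (chr16:92715624-92715823): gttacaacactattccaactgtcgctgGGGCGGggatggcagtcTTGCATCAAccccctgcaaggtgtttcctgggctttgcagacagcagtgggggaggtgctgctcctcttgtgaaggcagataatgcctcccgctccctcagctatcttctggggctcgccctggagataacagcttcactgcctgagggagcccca

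The lost regions had low HDAC1 peaks. Peak scores were taken to be −log10 significance values, from either p or q. Up to 0.938% of the scores of a list lay under 2, which is the −log10 of the stated q-value limit of 0.01, so which of these it is was not settled. At lost regions the median score was 5.57 in ctrl replicate 1 (range 1.44 to 25.6) and 4.93 in ctrl replicate 2 (range 1.36 to 16.74), against 10.55 and 8.55 at kept regions. The share that was lost fell with the ctrl score. Of the regions in the lowest quintile by the geometric mean of both ctrl scores 35.3% were lost, and the shares in the following quintiles were 18.7%, 9.76%, 3.08%, and 0.379%. In 301 lost regions (10.6%) the lower of the 2 ctrl scores was under 3, and in 25 (0.881%) both were 10 or more. Just outside the rule stood 4828 regions with a peak in both ctrl lists and in 1 of the 2 1hIL4 lists. Their median geometric mean ctrl score was 6.16 against 5.21 in the lost regions, and the median score of their single 1hIL4 peak was 5.11. The lost regions were also narrow, with a median width of 351 bp (199 to 1033 bp) against 544 bp at kept regions.

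**Figure D1:**
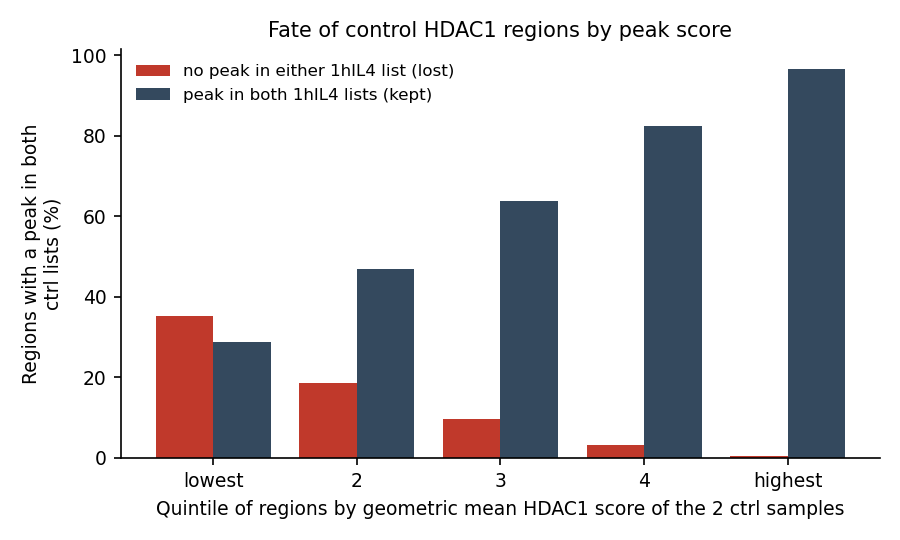
Share of the regions with an HDAC1 peak in both ctrl lists (y axis, percent) that were lost (red) or kept (dark) after IL-4, by quintile of the ctrl HDAC1 score (x axis). The lost share drops from 35.3% in the lowest quintile to 0.379% in the highest quintile.

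Lost regions, like all merged HDAC1 regions, lay mostly away from promoters. By the authors' annotation 1302 (45.9%) were in introns, 987 (34.8%) were intergenic, and 370 (13.04%) were at promoters. The same shares of all merged regions were 44.7%, 31.9%, and 16.6%. Of the kept regions 20.4% were at promoters, and of the gained regions 9.90%. The median distance of lost regions to the nearest start site was 12.9 kb. It was 9.01 kb for kept, 17.6 kb for gained, and 10.7 kb for all merged regions. Within 1 kb of a start site lay 693 lost regions (24.4%), beside 28.8% of all. Annotated repeats held 472 lost regions (16.6%), 12.1% of the kept regions, and 14.5% of all. The median GC content of the 200-base windows was 49.5% at lost regions and over all. Of the lost windows 16.5% had 10 or more CpG, against 24.2% of the kept windows and 18.8% of all. Of the lost regions 245 (8.63%) lay within 10 kb of another lost region and 964 (34.0%) within 10 kb of a kept region. The same shares of the kept regions were 8.25% and 29.98%. On the autosomes 12.3% to 15.7% of the regions with a peak in both ctrl lists were lost, and on the X chromosome 51 of 249 (20.5%) were.

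AP-1 letters were more frequent in the lost regions and STAT6 letters less frequent. The AP-1 motif TGANTCA, bound by dimers of FOS and JUN proteins, was in 435 of the 2838 lost windows (15.3%), in 11.6% of the kept, 11.3% of the gained, and 12.3% of all windows. The STAT6 motif with 4 spaced bases was in 88 lost windows (3.10%), in 7.27% of the kept, 7.29% of all, and 35.1% of the gained windows. The STAT letters with 3 spaced bases followed the same order, with 5.004% of lost, 7.47% of kept, and 14.5% of gained windows. This order for AP-1 between lost and kept regions held at promoters, in introns, and between genes, and so did that for STAT6. In the 3 lowest quintiles of the HDAC1 score AP-1 letters were in 14.96%, 14.1%, and 19.2% of the lost windows and in 10.6%, 12.3%, and 12.2% of the kept windows, and STAT6 letters were in 3.09%, 3.68%, and 1.94% of the lost and in 10.4%, 8.65%, and 7.24% of the kept windows. The PU.1 and ETS letters GAGGAAGT were in 10.3% of lost, 12.2% of kept, and 10.7% of all windows. The RUNX letters were in 7.86%, 7.68%, and 7.20%, the C/EBP letters in 2.15%, 1.74%, and 1.68%, and the IRF letters in 3.77%, 4.54%, and 4.45%. The NF-kB letters were rare, in 0.458% of lost, 0.402% of kept, and 0.446% of all windows. Motifs common at promoters were less frequent in lost than in kept windows, with SP and KLF letters in 10.3%, 13.6%, and 11.7% of lost, kept, and all windows, the E-box CACGTG in 4.93%, 6.88%, and 5.25%, NFY letters in 17.7%, 18.9%, and 19.3%, the ETS letters CCGGAAGT in 0.987%, 2.13%, and 1.38%, the CRE TGACGTCA in 0.423%, 0.632%, and 0.477%, and the YY1 letters AAGATGGC in 1.06%, 1.16%, and 1.12%. Both strands were searched, 1 site can count for several motifs, and these counts were not tested.

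**Figure D2:**
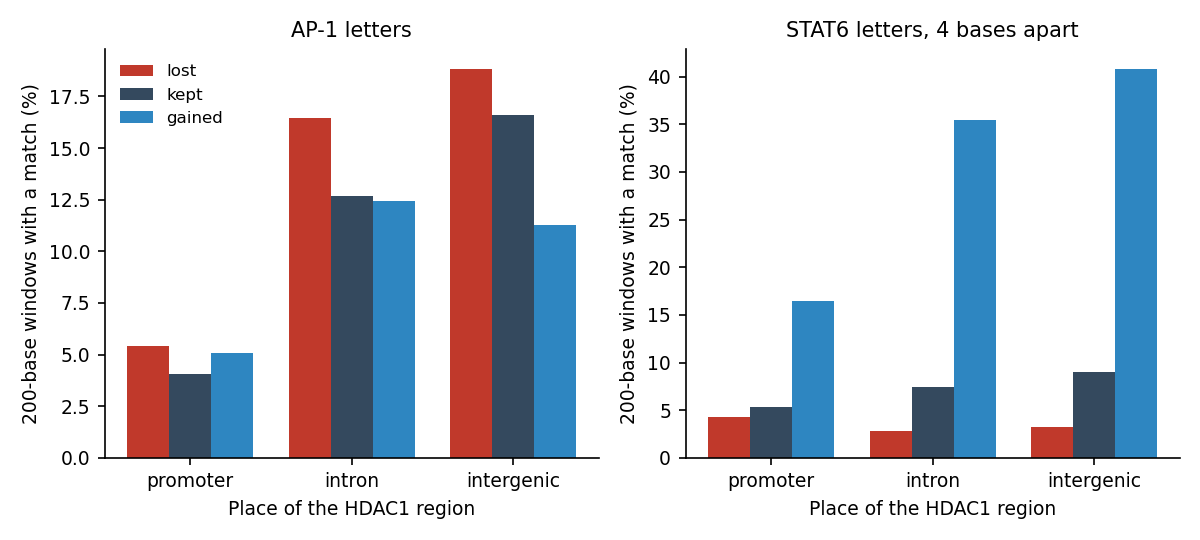
Share of 200-base windows (y axis, percent) with AP-1 letters (left) and STAT6 letters with 4 spaced bases (right) at promoter, intronic, and intergenic HDAC1 regions (x axis) that were lost, kept, or gained after IL-4. In introns AP-1 letters were in 16.4% of lost and 12.7% of kept windows, and STAT6 letters in 2.84% of lost, 7.45% of kept, and 35.4% of gained windows.

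Most lost HDAC1 regions remained occupied by other factors, as most merged HDAC1 regions were. A p300 peak overlapped 77.4% and 91.4% of them in the 2 ctrl samples and 91.1% and 91.7% in the 2 1hIL4 samples, where the low ctrl value belongs to the short list of ctrl replicate 1. Over all merged regions the p300 shares were 74.7% and 89.5% in ctrl and 91.0% and 91.7% after IL-4. PU.1 peaks overlapped 69.4% and 62.8% in ctrl and 64.4% and 66.3% after IL-4, and the groups overlap. Of all merged regions they overlapped 67.8% and 62.5% in ctrl and 66.7% and 68.1% after IL-4. HDAC2, the usual partner of HDAC1, was at 52.3% and 44.8% in ctrl and at 51.1% and 31.1% after IL-4, so only 1hIL4 replicate 2 was low. That sample had the shortest HDAC2 list, with 19683 peaks. Over all merged regions HDAC2 was at 53.0% and 47.7% in ctrl and 60.8% and 45.4% after IL-4. HDAC3 peaks were rarer, at 21.4% and 14.2% in ctrl and 19.5% and 15.3% after IL-4. Their shares over all were 28.2% and 20.1% in ctrl and 31.5% and 28.0% after IL-4. H3K27Ac regions overlapped 60.7% and 60.1% in ctrl and 55.4% and 55.5% after IL-4. RNAPII-pS5 peaks overlapped 67.0% and 58.0% in ctrl and 51.1% and 48.6% after IL-4. For these last 2 antibodies the ctrl values were all above the 1hIL4 values. Over all merged regions this order held for H3K27Ac too, with 62.5% and 62.4% in ctrl and 62.1% and 61.7% after IL-4. For RNAPII-pS5 the groups overlapped there, with 69.6% and 62.0% in ctrl and 63.7% and 60.6% after IL-4. In both ctrl samples 87 lost regions (3.07%) had a peak of none of the 6 antibodies other than HDAC1 and RNAPII-pS2, and 77 (2.71%) had a peak of all 6. The corresponding shares were 0.892% and 23.3% of the kept regions and 6.58% and 9.46% of all merged regions.

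**Figure D3:**
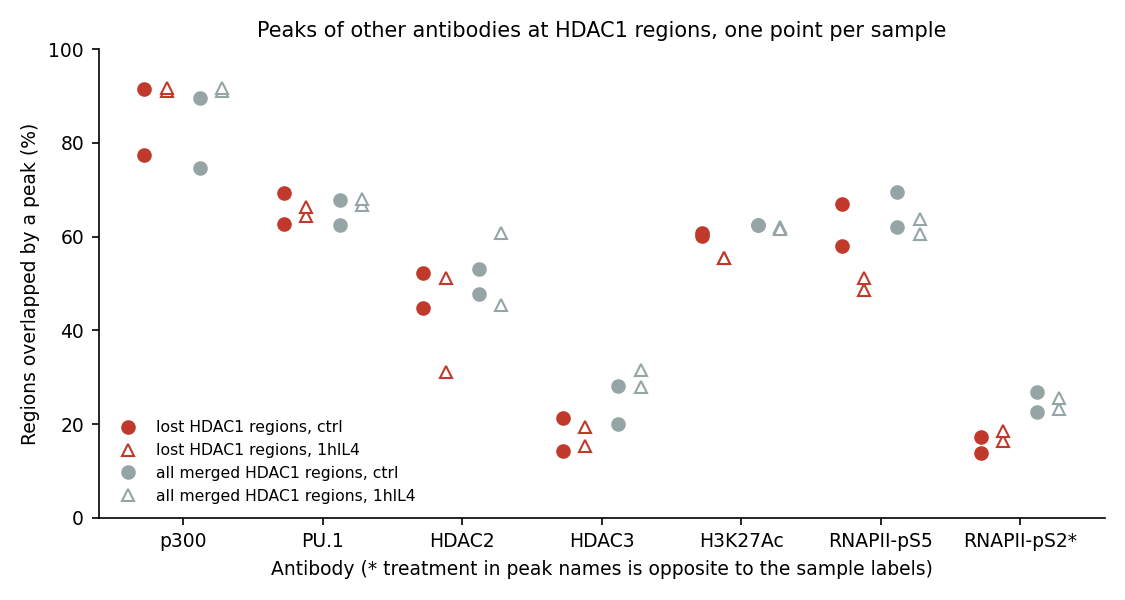
Share of HDAC1 regions (y axis, percent) overlapped by a peak of each other antibody (x axis), with 1 point per sample, for lost (red) and all merged (gray) regions in ctrl (filled circles) and 1hIL4 (open triangles). The ctrl points lie above the 1hIL4 points for H3K27Ac and RNAPII-pS5 at lost regions, and the p300 point at 77.4% is ctrl replicate 1.

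Few regions lost a second factor by the same rule, that is, a peak in both ctrl lists and in neither 1hIL4 list. Among lost regions with any RNAPII-pS5 peak, 187 of 2096 (8.92%) had lost it and 20 (0.954%) had gained it, beside 4.42% and 2.91% of all merged regions with such a peak. HDAC2 was lost at 181 of 2131 regions (8.49%) and gained at 61 (2.86%), beside 3% and 5.08% of all. H3K27Ac was lost at 109 of 1883 regions (5.79%) and gained at 26 (1.38%), beside 3.26% and 3.4%. These 3 antibodies thus had more losses than gains at the lost HDAC1 regions, as did HDAC3 and PU.1. For HDAC3 the counts were 38 and 34 of 911 (beside 1.87% lost and 8.76% gained of all) and for PU.1 47 and 28 of 2155 (beside 1.23% and 2.68%). The p300 peak was lost at 3 of 2691 regions and gained at 39, beside 0.138% and 2.7% of all. By the labels RNAPII-pS2 was lost at 29 and gained at 71 of 734 regions, beside 6.59% and 5.47%.

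The p300 score was lower after IL-4 at many lost regions. To compare scores, each region took the highest score of an overlapping peak, the median over the regions tested was subtracted within each sample, and limma was run on log2 scores over all merged HDAC1 regions with a peak in all 4 samples of the antibody, with an adjusted p of at most 0.05 as the threshold. Of the 2838 lost regions 2171 could be tested for p300. The score was lower at 578 (26.6%) and higher at 61 (2.81%), beside 12.2% lower and 11.4% higher among all 28912 regions tested. The median log2 difference was −0.41 at lost regions, −0.05 at kept regions, and −0.10 over all. The raw median p300 scores of the lost regions were 16.2 and 51.1 in ctrl and 35.8 and 36.9 after IL-4, and those of all regions were 16.7 and 51.7 in ctrl and 49 and 49.99 after IL-4. Raw scores of ctrl replicate 1 were thus low throughout, and the comparison rests on the centring. Without it the median difference was 0.35 at lost regions and 0.65 over all, and 0 lost regions passed the test as lower and 1 as higher. Without ctrl replicate 1 the median difference was −0.38 at lost regions and −0.03 over all. Without 1hIL4 replicate 1 or 2 it was −0.41 or −0.42 at lost regions and −0.10 or −0.09 over all, and fewer lost regions passed the test.

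Named by the size of the change among regions past the test, 3 lost regions with the largest p300 decreases and the 3 with the largest increases are given here. At the promoter of Hal, which encodes the histidine-degrading enzyme histidine ammonia-lyase, the p300 score was 27.7 and 92.04 in ctrl and 13.25 and 11.94 after IL-4 (log2 difference −2.76 ± 0.30 (SE), adjusted p = 3.2e-06, limma). An intergenic region 154 kb from Ipo5, an importin gene, scored 20.76 and 80.35 in ctrl and 16.74 and 8.52 after IL-4 (−2.53, adjusted p = 8.06e-05). A region 2.48 kb from Bpifb9b scored 23.87 and 91.34 in ctrl and 11.75 and 18.66 after IL-4 (−2.41, adjusted p = 2.41e-05). At all 3 both ctrl scores were above both 1hIL4 scores. The largest increase was 3.84 kb from Sema3b, which encodes a secreted semaphorin, where the score was 3.07 and 25.32 in ctrl and 203.23 and 202.56 after IL-4 (3.77, adjusted p = 2.55e-07). Increases were also found in intron 4 of Slc25a12, a mitochondrial aspartate-glutamate carrier (5.73 and 10.38 in ctrl, 73.59 and 75.14 after IL-4, adjusted p = 3.04e-05), and in the intron of Irf2bp2, a corepressor that binds IRF2 (6.41 and 19.31 in ctrl, 76.24 and 86.63 after IL-4, adjusted p = 1.73e-05). In these 3 regions every 1hIL4 score exceeded every ctrl score.

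Lost regions were more often lower in p300 than kept regions of like HDAC1 score. In the lowest quintile of the ctrl HDAC1 score 256 of 1090 tested lost regions (23.5%) were lower in p300, and in the next 3 quintiles the share was 25.96%, 33.2%, and 38.8%. Kept regions of the same quintiles were lower in 7.37%, 7.49%, 8.24%, and 8.37%. The highest quintile held 13 tested lost regions, of which 6 (46.2%) were lower, beside 5.99% of kept regions. The share also varied with the p300 score itself. Among lost regions the share called lower ran from 4.87% in the lowest quintile of the p300 score to 47.1% in the fourth, and in all merged regions from 3.82% to 20.0%.

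H3K27Ac was lower at 610 of the 1414 lost regions tested (43.1%) and higher at 244 (17.3%), beside 31.3% lower and 24.9% higher among all 21592 regions tested. The raw median signal at lost regions was 76.7 and 76.9 normalized tags in ctrl and 64.6 and 65.8 after IL-4, with no overlap between the groups, and that of all regions was 98.5 and 97.5 in ctrl and 95.7 and 96.2 after IL-4. The median log2 difference was −0.15 at lost regions, 0.00 at kept regions, and −0.01 over all. In the lowest quintile of the HDAC1 score 42.5% of lost regions and 25.6% of kept regions were lower, and in the fourth 47 of 69 lost regions (68.1%) and 32.9% of kept regions were. By quintile of the H3K27Ac signal itself, lowest first, 44%, 50.3%, 41.7%, 40.8%, and 33.5% of lost regions were lower. The same shares of all merged regions were 28.2%, 32.7%, 30.5%, 31.6%, and 33.4%. In the highest of these quintiles 34% of lost regions were higher, beside 31.4% of all.

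**Figure D4:**
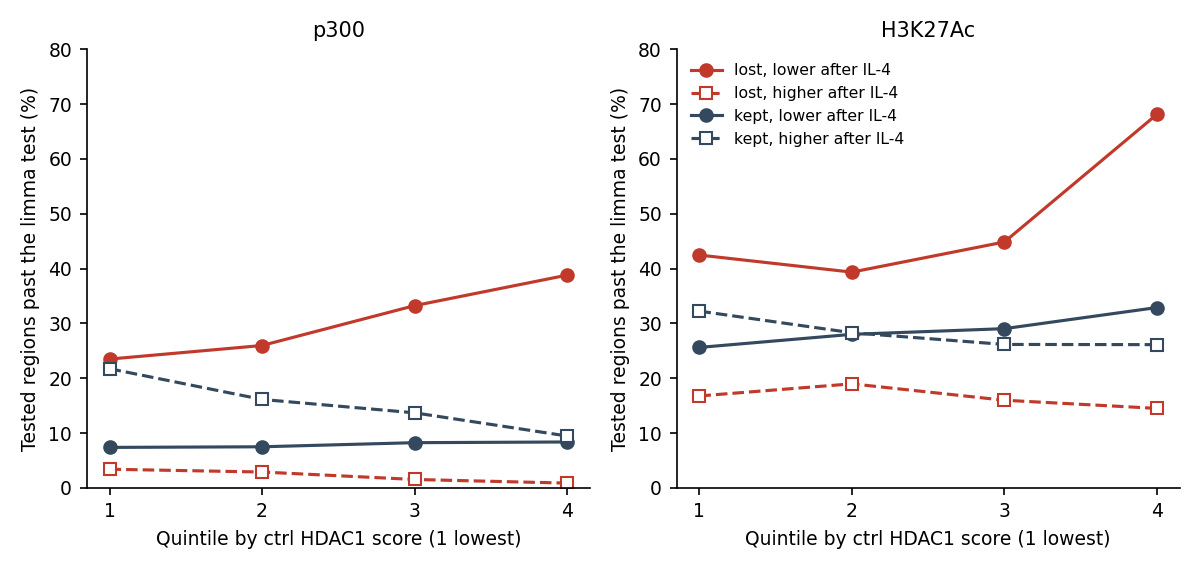
Share of tested regions (y axis, percent) past the limma test as lower (solid) or higher (dashed) after IL-4 in p300 (left) and H3K27Ac (right), by quintile of the ctrl HDAC1 score (x axis), for lost (red) and kept (dark) HDAC1 regions. In p300 23.5% to 38.8% of the lost and 7.37% to 8.37% of the kept regions were lower in these 4 quintiles. The highest quintile held 16 lost regions and is not drawn.

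The largest H3K27Ac decreases were at distal regions. In an intron 58.5 kb from the start site of Cacnb4, a calcium channel subunit gene, the signal was 85.6 and 84.7 in ctrl and 28.5 and 29.2 after IL-4 (log2 difference −1.53 ± 0.12 (SE), adjusted p = 1.66e-14, limma). A region 17.6 kb from the receptor gene Gpr83 had 48.5 and 57.5 in ctrl and 16.9 and 19.1 after IL-4 (−1.52, adjusted p = 1.38e-11). An intronic region 97.6 kb from Stk17b, a kinase gene, had 34.7 and 28.7 in ctrl and 11.6 and 10.1 after IL-4 (−1.51, adjusted p = 2.58e-09). The p300 score was lower at all 3 as well, with log2 differences of −1.22, −1.59, and −1.06. The largest increases were at gene starts and in 1 exon. At the promoter of Flot1, the gene of the membrane scaffold protein flotillin 1, the signal was 177.1 and 186.5 in ctrl and 573.5 and 557.2 after IL-4 (1.67, adjusted p = 3.98e-27). In an exon 28.3 kb from the start site of Snap47 it was 27.3 and 20.9 in ctrl and 74.8 and 69.1 after IL-4 (1.62, adjusted p = 1.33e-13), and the p300 score there rose from 10.37 and 44.88 to 140.88 and 118.21. In the first exon of Ppm1k, a mitochondrial phosphatase gene, it was 91.2 and 93.7 in ctrl and 258.9 and 278.1 after IL-4 (1.57, adjusted p = 1.48e-22).

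Decreases of p300 and H3K27Ac coincided and were found at distal regions more than at promoters. Of the 1086 lost regions tested for both, 232 (21.4%) were lower in both and 20 (1.84%) were higher in both, beside 9.03% and 8.21% of all regions. A further 12 were lower in p300 and higher in H3K27Ac, and 1 was the reverse, beside 55 and 21 of all 17157 regions tested for both. At promoters p300 was lower at 12 of 192 lost regions (6.25%), in introns at 273 of 995 (27.4%), and between genes at 278 of 892 (31.2%), beside 3.003%, 12.8%, and 15.5% of all regions of those places. H3K27Ac was lower at 33 of 250 lost promoter regions (13.2%) and higher at 73 (29.2%), close to the 11.1% and 28.1% of all promoter regions. In introns it was lower at 45.6%, and between genes at 60.7%, beside 34.6% and 45.1% of all.

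The same decreases were more frequent in windows with AP-1 letters. With these letters, 181 of 404 tested lost regions (44.8%) were lower in p300 and 7 higher, with a median log2 difference of −0.61, and without them 397 of 1767 (22.5%) were lower, with a median of −0.36. Over all merged regions 21.3% with and 10.6% without AP-1 letters were lower. For H3K27Ac 134 of 223 lost regions with AP-1 letters (60.1%) and 476 of 1191 without (39.97%) were lower, beside 46.7% and 29.1% of all. In the 64 tested lost regions with STAT6 letters 11 were lower and 10 higher in p300, with a median of 0.07. Over all merged regions with STAT6 letters 63 were lower and 1021 higher of 2020.

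Few PU.1 scores passed the test, which does not show that the others were unchanged. Of 1529 lost regions tested 7 were lower and 0 higher (limma, with 137 lower and 42 higher at an unadjusted p of at most 0.05), beside 0.193% lower and 1.63% higher of all, and the median log2 difference was −0.19 at lost regions against −0.05 over all. At the unadjusted threshold 1129 of all 21724 regions tested were lower and 1429 higher. In an intron 12.2 kb from Cxcl11, a gene for a chemokine induced by interferon, the PU.1 score was 70.93 and 16.14 in ctrl and 6.19 and 8.64 after IL-4 (log2 difference −2.62 ± 0.54 (SE), adjusted p = 0.00184, limma). Both 1hIL4 PU.1 scores were below both ctrl scores, which differed widely from each other. The p300 score in this region was higher, with 16.81 and 101.02 in ctrl and 123.24 and 108.05 after IL-4 (log2 difference 0.73, adjusted p = 0.0417, limma). An intergenic region 70.9 kb from Mir5130 had PU.1 scores of 6.66 and 11.25 in ctrl and 2.48 and 1.72 after IL-4 (adjusted p = 0.0433). The promoter of Ugt1a6a, a glucuronosyltransferase gene, had 13.55 and 6.68 in ctrl and 2.22 and 2.47 after IL-4 (adjusted p = 0.0409). These last 2 are low peaks. The p300 log2 difference was −1.89 (adjusted p = 0.000534, limma) near Mir5130 and −0.77 (adjusted p = 0.0791) at Ugt1a6a. The balance of the few PU.1 calls at lost regions depended on the libraries. It was mostly lower without ctrl replicate 1 and mostly higher without ctrl replicate 2, while over all regions it was mostly higher in both cases. The median log2 difference was −0.22 at lost regions and −0.04 over all without ctrl replicate 1. Without ctrl replicate 2 it was −0.20 and −0.07.

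The other deacetylases could be tested at few lost regions. HDAC2 had a peak in all 4 samples at 421 of them, and 0 passed the limma test in either direction, with 34 lower and 6 higher at an unadjusted p of at most 0.05. That does not show that HDAC2 was unchanged there. The test called 0.0258% of all 11627 regions lower and 0.206% higher, and at the unadjusted threshold 439 of them were lower and 527 higher. The median log2 difference was −0.12 at lost regions and −0.02 over all, and the raw medians of 7.48 and 6.19 in ctrl and 7.67 and 5.59 after IL-4 overlapped between the groups. HDAC3 had a peak in all 4 samples at 197 lost regions, of which 2 were lower and 0 higher, beside 0.626% lower and 1.79% higher of all, with a median of −0.33 against −0.06 over all. An intergenic region 21.8 kb from Stfa3, a gene for a cysteine protease inhibitor, had HDAC3 scores of 30.51 and 18.13 in ctrl and 15.99 and 4.42 after IL-4 (−1.78, adjusted p = 0.00512, limma), and lost its HDAC2 peak (15 and 5.71 in ctrl). Its p300 score was 60.78 and 129.56 in ctrl and 48.21 and 70.32 after IL-4 (−1.36, adjusted p = 0.000253). A region 9.59 kb from Gm10782 had HDAC3 scores of 67.87 and 44.86 in ctrl and 44.5 and 30.78 after IL-4 (−0.87, adjusted p = 0.0307), and the lower ctrl score there was close to the higher 1hIL4 score. Without ctrl replicate 2 or 1hIL4 replicate 2, 0 lost regions passed the test for HDAC3.

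RNAPII-pS5 is typical of polymerase near start sites and is also found at active enhancers. Few of its scores passed the test where a peak persisted. Of 1134 lost regions tested 6 were lower and 3 higher, beside 0.284% lower and 0.778% higher of all (limma, with 112 lower and 91 higher at an unadjusted p of at most 0.05). At the unadjusted threshold 1370 of all 20064 regions tested were lower and 1876 higher. The median log2 difference was 0.01 at lost regions and 0.04 over all. The largest decrease was 1.12 kb from Me2, a malic enzyme gene, with scores of 69.78 and 46.54 in ctrl and 10 and 6.48 after IL-4 (log2 difference −2.71 ± 0.30 (SE), adjusted p = 0.00101). Next came regions near Stmn1, the gene of the tubulin-binding protein stathmin (31.79 and 21.08 in ctrl, 7.31 and 4.37 after IL-4, adjusted p = 0.0279), and near Akr1a1, an aldo-keto reductase gene (38.66 and 25.04 in ctrl, 8.75 and 6.34 after IL-4, adjusted p = 0.0208). The p300 log2 difference was −0.93 (adjusted p = 0.026) near Me2 and −1.44 (adjusted p = 0.000691) near Akr1a1, and −0.66 (adjusted p = 0.058) near Stmn1. All 3 increases were within 1 kb of a start site. In intron 1 of Fance, a DNA repair gene, the score was 4.41 and 6.05 in ctrl and 43.34 and 41.37 after IL-4 (3.15, adjusted p = 0.00214). At the promoter of Reep3 it was 16.58 and 12.24 in ctrl and 49.99 and 30.75 after IL-4 (1.58, adjusted p = 0.0272), and at that of Mark4, a microtubule-regulating kinase, it was 37.78 and 25.55 in ctrl and 72.39 and 72.16 after IL-4 (1.33, adjusted p = 0.00505). H3K27Ac rose at these 2 promoters, with log2 differences of 1.31 and 0.75. The balance of the few RNAPII-pS5 calls depended on the libraries, at lost regions and over all regions tested. Without ctrl replicate 1 the median log2 difference was −0.03 at lost regions and 0.003 over all. Without 1hIL4 replicate 1 it was 0.05 at lost regions and 0.07 over all.

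RNAPII-pS2 had a peak in all 4 samples at 246 lost regions, and between the libraries labelled 1hIL4 and those labelled ctrl 8 differed, 3 lower and 5 higher by the labels, beside 0.931% lower and 1.16% higher of all. The 3 lay near Flot1, Fuca1, and Zfp384, and the 3 of the 5 with the largest differences near Med11, Tatdn2, and Ctsh.

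The 10 lost regions with the highest ctrl HDAC1 scores lay near Gm13546, Stt3b, F12, Rims1, AI480653, Fam118b, Usp6nl, Arhgap17, F930015N05Rik, and Gm13498. At the first (chr2:58183656-58184011, intergenic) the HDAC1 scores were 25.6 and 13.04 in ctrl, with no peak after IL-4. The p300 score there was 66.47 and 172.9 in ctrl and 118.29 and 112.1 after IL-4 (log2 difference after centring −0.65, adjusted p = 0.0265, limma), and H3K27Ac was 58.6 and 59.0 in ctrl and 41.1 and 38.2 after IL-4 (−0.54, adjusted p = 0.000294). PU.1 was 44.36 and 45.88 in ctrl and 63.37 and 70.82 after IL-4 (0.16, adjusted p = 0.906). At the promoter of Stt3b, a catalytic subunit of the oligosaccharyltransferase that glycosylates proteins, HDAC1 scored 16.3 and 16.74 in ctrl, and H3K27Ac was 168.5 and 174.6 in ctrl and 242.7 and 245.4 after IL-4 (0.54, adjusted p = 1.84e-09). A region 2.77 kb from F12, the coagulation factor XII gene, had HDAC1 scores of 18 and 13.68 and H3K27Ac of 157.2 and 151.5 in ctrl and 104.6 and 92.7 after IL-4 (−0.62, adjusted p = 1.89e-08).
Of these 10 regions, 7 had a p300 peak in all 4 samples. In intron 1 of Arhgap17, a GTPase-activating protein gene, HDAC1 was 13.23 and 13.78 and p300 was 34.28 and 90.66 in ctrl and 57.45 and 47.63 after IL-4 (−0.85, adjusted p = 0.00557). At an intergenic region nearest F930015N05Rik, p300 was 95.29 and 232.11 in ctrl and 149.22 and 145.6 after IL-4 (−0.77, adjusted p = 0.023), and H3K27Ac was 31.9 and 20.6 in ctrl and 12.9 and 12.2 after IL-4 (−1.0005, adjusted p = 2.88e-05). In an intron 51.5 kb from AI480653 H3K27Ac instead rose from 168.5 and 174.0 to 269.2 and 257.6 (0.65, adjusted p = 1.02e-11).

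The lost regions were nearest to 2399 genes, of which 2040 had 1 lost region and 18 had 4 or more. The most were 6 each near Nrp1, the gene of the semaphorin and VEGF coreceptor neuropilin 1 (of 17 regions with a peak in both ctrl lists), and Sgms1, the gene of a sphingomyelin synthase (of 18), and 5 near Sspn, the gene of sarcospan (of 10). The 6 near Nrp1 were all intergenic, 76.1 to 511 kb from its start site. The region 136 kb away had p300 scores of 37.94 and 83.68 in ctrl and 44.98 and 48.37 after IL-4 (log2 difference −1.03, adjusted p = 0.002, limma) and H3K27Ac of 95.2 and 77.8 in ctrl and 47 and 41.7 after IL-4 (−0.93, adjusted p = 4.41e-09). The region 76.1 kb away had H3K27Ac of 27 and 32.2 in ctrl and 11.6 and 11.5 after IL-4 (−1.32, adjusted p = 5.23e-08). In all 3 regions near Nrp1 that were tested for H3K27Ac it was lower, beside 31.3% of all merged regions tested. The p300 score was lower in 3 of the 5 tested near Nrp1, beside 12.2% of all merged regions tested.
The 6 regions near Sgms1 were all in introns. The one 13 kb from the start site had p300 scores of 64.4 and 163.35 in ctrl and 88.56 and 107.13 after IL-4 (−0.83, adjusted p = 0.00609) and H3K27Ac of 364.4 and 341.8 in ctrl and 198.7 and 202 after IL-4 (−0.79, adjusted p = 3.16e-15). That 67.8 kb away had H3K27Ac of 283.3 and 234.6 in ctrl and 146.4 and 152 after IL-4 (−0.76, adjusted p = 2.29e-12). Of the 6, p300 was lower in 4, and the other 2 had log2 differences of −0.70 (adjusted p = 0.0941) and −0.85 (adjusted p = 0.174). Near Sspn p300 was lower in 2 of the 4 regions tested. For both genes the share over all merged regions tested is the same 12.2%.

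**Figure D5:**
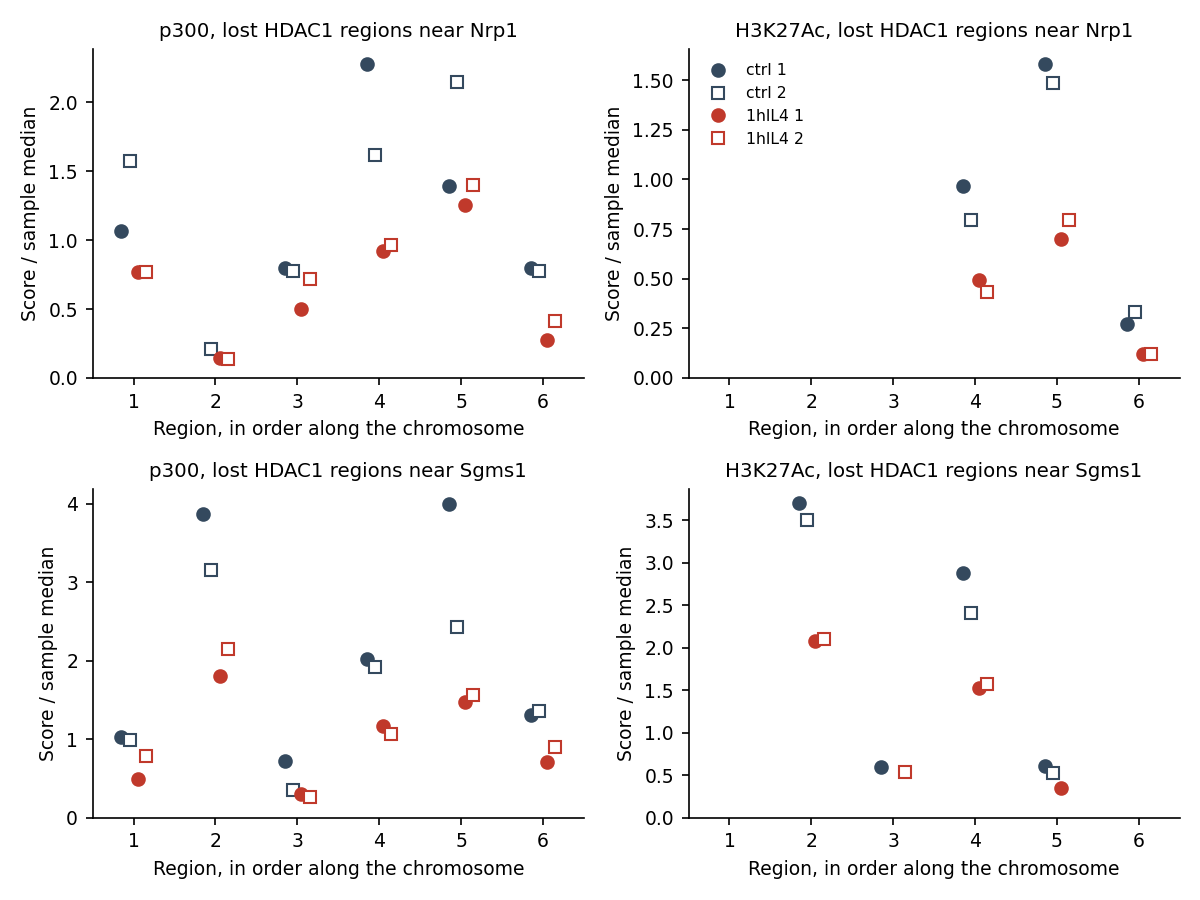
Scores of p300 (left) and H3K27Ac (right) at the 6 lost HDAC1 regions near Nrp1 (top) and near Sgms1 (bottom), in order along the chromosome (x axis). The y axis is the score divided by the sample's median over all HDAC1 regions tested, with 1 point per sample and no point where a sample has no peak. At the second Sgms1 region the p300 points are 3.87 and 3.16 in ctrl and 1.81 and 2.14 after IL-4.

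Lost regions were also counted near genes of 8 macrophage pathways, where each region counts for the gene whose start site is nearest. The pathway shares are read beside the 13.4% of all regions with a peak in both ctrl lists that were lost. Lost regions are taken to lie near a gene only in this sense. Beside each count of p300 calls stands the share over all merged regions of the same genes. Near 30 inflammatory cytokine and chemokine genes 4 of 54 regions were lost (7.41%), at Cxcl1, Il1b, Lta, and Osm, and p300 was lower at 2 and higher at 0 of the 4, beside 21.6% lower and 18.2% higher. The region 37.9 kb from Cxcl1, a neutrophil-attracting chemokine, had p300 scores of 34.24 and 92.12 in ctrl and 39.64 and 48.77 after IL-4 (log2 difference −1.11, adjusted p = 0.000819, limma), and its H3K27Ac region (15 and 17.2) and its HDAC3 peak (13.72 and 3.31) were absent after IL-4. The region 13.3 kb from Lta, the lymphotoxin gene, had p300 scores of 16.77 and 29.38 in ctrl and 7.96 and 19.21 after IL-4 (−1.60, adjusted p = 0.0162). At Osm p300 was 58.2 and 149.76 in ctrl and 115.24 and 140.7 after IL-4 (−0.31, adjusted p = 0.312).
Near 33 pattern recognition and Fc receptor genes 11 of 87 regions were lost (12.6%), at 9 genes that include Tlr2, Tlr4, Nlrp3, and Msr1. All 11 were tested for p300, with 4 lower and 0 higher, beside 12.1% lower and 15% higher. H3K27Ac was lower at 2 and higher at 1 of 5 tested, beside 38.6% and 25.7%. At the promoter of Msr1, a scavenger receptor, p300 was 34.02 and 101.33 in ctrl and 102.16 and 103.29 after IL-4 (0.05, adjusted p = 0.871). At the promoter of Fcgr2b, the inhibitory Fc receptor, HDAC1 scored 6.95 and 5.12 in ctrl, and H3K27Ac was 143 and 154.3 in ctrl and 380.1 and 379.8 after IL-4 (1.39, adjusted p = 6.55e-23). The region assigned to Tlr2 lies in an intron 58.2 kb away and had low p300 scores (7.88 and 11.7 in ctrl, 12.68 and 11.61 after IL-4, adjusted p = 0.578).

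Near 26 immediate early and AP-1 genes 13 of 117 regions were lost (11.1%), among them regions at Fos, Jun, and Junb. Of 10 tested for p300 2 were lower and 1 higher, beside 10.1% and 16.7%. The region 49.2 kb from Ier5 had p300 scores of 47.3 and 118.9 in ctrl and 131.38 and 156.56 after IL-4 (log2 difference 0.18, adjusted p = 0.568, limma), and the promoter of Junb, an AP-1 subunit, had 7.51 and 32.26 in ctrl and 21.69 and 19.26 after IL-4 (−0.36, adjusted p = 0.529). Near 30 NF-kB and signal feedback genes 11 of 100 regions were lost (11%). Of 10 tested for p300 1 was lower and 0 higher, beside 15.6% and 14.4%. H3K27Ac was lower at 5 and higher at 1 of 6 tested there, beside 50.5% lower and 25.7% higher over all regions of these genes. In the intron of Nfkbiz, which encodes an atypical IkB protein, it was 199.2 and 222.4 in ctrl and 117.9 and 111.8 after IL-4 (−0.84, adjusted p = 4.22e-13). At the region 30.8 kb from Socs1 it was 122.5 and 101.2 in ctrl and 149 and 161.8 after IL-4 (0.51, adjusted p = 1.32e-06). The region 66.4 kb from Dusp6, a MAP kinase phosphatase gene, held strong PU.1 peaks of 74.05 and 66 in ctrl and 131.11 and 129.84 after IL-4 (0.49, adjusted p = 0.375).
Near 32 genes of IL-4 signaling and alternative activation 6 of 94 regions were lost (6.38%), at Il4ra, Il13ra1, Jak1, Klf4, and Stat6. Of the 4 tested for p300 0 passed the limma test in either direction, beside 4.96% lower and 26.95% higher. With an unadjusted p of at most 0.05, 0 of the 4 were lower and 0 higher, beside 16 lower and 44 higher of the 141 regions tested near these genes. In intron 1 of Stat6, 0.832 kb from its start site, HDAC1 scored 6.79 and 7.55 in ctrl, and RNAPII-pS5 was 71.19 and 54.11 in ctrl and 57.72 and 65.14 after IL-4 (0.10, adjusted p = 0.835).

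Near 29 macrophage lineage and enhancer factor genes 17 of 129 regions were lost (13.2%), at 11 genes that include Runx1, Mef2a, and Mitf, with p300 lower at 3 and higher at 1 of 13, beside 10.1% and 11.1%. In intron 2 of Runx1 HDAC1 scored 11.11 and 4.8 in ctrl, and H3K27Ac was 137.2 and 135.9 in ctrl and 282.4 and 278.8 after IL-4 (log2 difference 1.07, adjusted p = 3.23e-18, limma). The region 53.0 kb from Mef2a moved the other way, with H3K27Ac of 155.3 and 171.5 in ctrl and 86.8 and 73.2 after IL-4 (−1.003, adjusted p = 3.6e-13) and p300 of 34.77 and 109.99 in ctrl and 55.66 and 63.06 after IL-4 (−0.82, adjusted p = 0.00415). Near 33 histone acetylation and corepressor genes 8 of 69 regions were lost (11.6%), at Bcl6, Ep300, Hdac3, Hdac4, Kat2b, Rbbp7, and Tbl1xr1. Of 5 tested for p300 0 were lower and 0 higher, beside 9.90% and 7.92%. H3K27Ac was lower at 2 and higher at 1 of 5 tested, beside 46.25% and 21.25%. The region 177 kb from Bcl6, a transcriptional repressor, had HDAC1 scores of 15.44 and 4.91 in ctrl and H3K27Ac of 10.7 and 17.2 in ctrl and 18.9 and 25.3 after IL-4 (0.72, adjusted p = 0.00293). Near 28 lipid and lysosome genes 10 of 69 regions were lost (14.5%), at 9 genes that include Abca1, Lyz1, and Gpnmb, with p300 lower at 4 and higher at 0 of 8, beside 13.2% and 7.55%. At Scarb1, the HDL receptor, HDAC1 scored 12.24 and 9.47 in ctrl and H3K27Ac was 113.3 and 117.2 in ctrl and 89.7 and 84.4 after IL-4 (−0.37, adjusted p = 0.000408).

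Last, lost regions were compared by how the study's RNA-seq, from other libraries, had grouped their nearest genes. Cluster E holds the 625 genes it lists as repressed by IL-4, and clusters A to C hold 488 genes it lists as induced. Near cluster E genes 243 of 1630 regions were lost (14.9%), at 184 genes, and near genes of clusters A to C 126 of 1136 (11.1%). At the lost regions of cluster E p300 was lower at 78 and higher at 2 of 208, with a median log2 difference of −0.58, and H3K27Ac was lower at 76 and higher at 3 of 106, with a median of −0.54. Over all merged regions of the same genes 20.3% were lower and 6.99% higher in p300, with a median of −0.31. In H3K27Ac 64.9% of them were lower and 8.04% higher, with a median of −0.36, beside 71.7% lower at the lost regions. In the first intron of Alox5, the 5-lipoxygenase gene, HDAC1 scored 9.7 and 13.45 in ctrl, and p300 was 35.52 and 92.97 in ctrl and 47.46 and 49.63 after IL-4 (−0.9978, adjusted p = 0.00138, limma). Near Acot1, an acyl-CoA thioesterase gene, H3K27Ac was 92.1 and 96.8 in ctrl and 35.8 and 42 after IL-4 (−1.25, adjusted p = 9.78e-13) and p300 was 73.07 and 177.15 in ctrl and 102.24 and 113.66 after IL-4 (−0.83, adjusted p = 0.00715). The next region by HDAC1 score lay near 2410066E13Rik, where p300 was 52.3 and 111.42 in ctrl and 126.32 and 119.09 after IL-4 (−0.07, adjusted p = 0.852, limma). H3K27Ac there was 153.8 and 153.7 in ctrl and 109.9 and 113.2 after IL-4 (−0.43, adjusted p = 7.58e-06).
At the lost regions of clusters A to C H3K27Ac was lower at 11 and higher at 36 of 60, with a median of 0.36, while p300 was lower at 20 and higher at 4 of 91, with a median of −0.23. Over all merged regions of these genes p300 was lower at 6.77% and higher at 28.5%, with a median of 0.21. H3K27Ac was lower at 10.8% and higher at 69.6% of them, with a median of 0.52. In an intron of Pde4b, a cAMP phosphodiesterase gene of these clusters, HDAC1 scored 9.5 and 8.53 in ctrl, and p300 was 52.62 and 113.48 in ctrl and 92.51 and 107.23 after IL-4 (−0.39, adjusted p = 0.199). Near the 501 genes of cluster D, also listed as induced, 101 of 738 regions were lost (13.7%), with p300 lower at 16 and higher at 3 of 82, beside 10.6% lower and 12.7% higher over all merged regions of these genes. H3K27Ac was lower at 19 and higher at 11 of their 42 tested lost regions, with a median of −0.15, beside 31.8% lower and 28.3% higher.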

How the data were processed

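The 32 peak lists of the 1 hr IL-4 experiment were analysed, with 4 samples for each of 8 antibodies, and 16 lists of a separate LPS experiment were used for peak presence only, while its 8 RNAPII-pS2 lists were not used. Groups were taken from the sample labels. The authors double cross-linked the cells, aligned reads with BWA 0.7.10 to mm10, used SAMtools 0.1.19 and HOMER 4.2, and called peaks in each sample with MACS2 2.0.10 at a q-value of at most 0.01, or with the histone mode of HOMER for H3K27Ac in regions of 1000 bp, and removed blacklisted regions. The deposited score of every antibody but H3K27Ac was taken, from its values, for the −log10 of the significance (a p-value or a q-value, not given in the sources used here). Steps between the 14 most frequent scores of the p300 ctrl replicate 2 list grew from 0.68 to 0.94, where a fold would give even steps. The lowest scores of the 28 lists were 1.30 to 1.89, under the 2 that a q-value of 0.01 would give, so which statistic or cut-off was used is not settled. The deposited H3K27Ac score is a signal, a number of normalized tags. A −log10 score grows with depth and list size as well as with enrichment, and no reads or input control were given, so depth and its counting error are unknown.

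Peaks overlapping by 1 bp or more were merged with Python 3.11.15 (NumPy 2.4.6, pandas 2.3.3). For each region the highest overlapping score per sample was log2 transformed and centred on the sample median over regions with a peak in all 4 samples, and limma 3.58.1 (R 4.3.3, trended empirical Bayes, Benjamini-Hochberg adjustment over all regions tested) compared 1hIL4 with ctrl at an adjusted p of at most 0.05. Single values were not tested alone, since 2 against 2 samples give no exact permutation p under 0.333. The script was tested on simulated scores with known changes. A log2 change of 1 was recovered in 8% of the changed regions for HDAC2, 17% for PU.1, 20% for RNAPII-pS2, and 25% for HDAC3. For RNAPII-pS5, p300, and H3K27Ac it was recovered in 49%, 60%, and 99%. Sequences were read from GRCm38 with pysam 0.24.0 and samtools 1.23.1, and figures were drawn with matplotlib 3.10.9. Annotation and nearest genes are those in the HOMER-annotated deposited files.

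Regions were named by fixed rules: the 10 highest by the geometric mean of the ctrl HDAC1 scores, the 3 with the largest change in each direction past the test for each antibody, the 3 highest by HDAC1 score in each gene list, and the genes with the most lost regions. The members and lists were chosen with earlier results of these data known. Alternatives tried were other merging rules, equal-sized lists, the upper 50% of peaks, no centring, quantile normalization, missing peaks set to the lowest score, leaving out the lowest 25% of regions, merged peaks of each antibody, unadjusted p, a replicate block, and leaving out each sample. A score minimum of 2 and an H3K27Ac region within 1 kb were added after seeing the data.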

Additional observations from a re-analysis of the deposited data

Results flagged for a closer look

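The NF-kB subunit p65 was measured in a separate experiment, in BMDMs with or without 24 hr of IL-4 that then received LPS for 1 hr or not, and was not part of the comparisons above. A p65 peak overlapped 12.3% and 12.6% of the 2838 lost HDAC1 regions in the 2 samples without either agent and 14.6% and 12.5% with IL-4 alone. After LPS the share was 35.6% and 36.5%, and after IL-4 and LPS it was 40.7% and 43.1%, above every sample without LPS. The lists themselves grew, from 9706 and 9556 peaks without either agent and 11026 and 10253 with IL-4 to 26305 and 26820 with LPS and 36738 and 38955 with both, and the part of list size in these shares was not tested. Over all merged HDAC1 regions the shares were 20.1% and 20.1% without either agent, 24.0% and 22.4% with IL-4, 39.9% and 40.8% with LPS, and 45.6% and 47.7% with both, so the lost regions had the lower share in every sample.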

How the results depend on the processing

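The count of 2838 lost regions was 1418 with equal-sized HDAC1 lists and 1604 with the upper 50% of peaks, and 4976 to 7841 when the rule used 3 lists, since it then asks for less. It was 2784 with a merging overlap of 100 bp, 2490 with no 1hIL4 peak within 500 bp, and 2840 with a score minimum of 2 that was chosen after seeing the data.

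Without centring 1 region passed the test for p300 (0 lower and 1 higher), 3 for PU.1 (1 lower and 2 higher), 0 for HDAC3, 18 for RNAPII-pS5, and 5 for RNAPII-pS2, and the p300 log2 differences of 4 named regions turned, to 0.10 near Gm13546, 0.018 near Sgms1, 0.0047 near Sspn, and 0.14 near 4921509O07Rik. With missing peaks at the lowest score the count was 1 for PU.1 (0 lower and 1 higher), 1 for HDAC3, 7 for RNAPII-pS5 (3 lower and 4 higher), and 2 for RNAPII-pS2. With the merged peaks of the antibody RNAPII-pS5 had 55 (27 lower and 28 higher). An unadjusted p gave 179 for PU.1, 40 for HDAC2, 30 for HDAC3, 203 for RNAPII-pS5, and 29 for RNAPII-pS2. In equal-sized HDAC1 lists, which hold fewer regions, the counts were 349 for p300, 448 for H3K27Ac, 1 for HDAC3, 5 for RNAPII-pS5, and 4 for RNAPII-pS2. Leaving out 1 sample, with the lone sample assumed to vary like the others, gave 321 to 879 for p300, 1 to 21 for PU.1, 0 to 1 for HDAC3, 12 to 18 for RNAPII-pS5, 5 to 7 for RNAPII-pS2, and 732 to 774 for H3K27Ac. The causes were not tested.

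The replicate numbers did not pair the samples (correlation of same-numbered deviations −0.012 to 0.081). The replicate block gave 22 calls for PU.1, 4 for HDAC3, and 17 for RNAPII-pS5, and 707 for p300 and 868 for H3K27Ac.

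The median log2 difference of lost minus all tested regions stayed below 0 over the 9 alternatives that can move it for p300 (−0.35 to −0.20), H3K27Ac (−0.20 to −0.09), PU.1 (−0.18 to −0.08), HDAC2 (−0.28 to −0.05), and HDAC3 (−0.40 to −0.22). For RNAPII-pS5 it ran from −0.17 to 0.026, the latter with the lowest 25% of regions left out.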
